A study of Mus musculus with 6 samples.

Results

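The nuclear genes of respiratory complex II, of complex III with cytochrome c, and of ATP synthase were examined in infarcted left ventricles of mice given CCN3 or PBS. They were taken by symbol: all genes named Sdha to Sdhd (with the Sdhaf assembly factors), Uqcr or Atp5, together with Cyc1, Cycs, Bcs1l, Ttc19, Atpaf1 and Atpaf2. This gave 39 of the 15909 genes measured, of which 8 belong to complex II, 12 to complex III with cytochrome c and 19 to ATP synthase. The rule itself uses symbols and no measured value, but it was proposed with earlier results of these data known. Their mean values ranged from 3.01 to 11.14 log2 CPM, so all 39 passed the low-value filter tried as an alternative.

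Complex II (succinate dehydrogenase) oxidises succinate in the citrate cycle and passes the electrons to ubiquinone in the inner mitochondrial membrane. Complex III takes electrons from reduced ubiquinone, hands them to the soluble carrier cytochrome c and pumps protons, and ATP synthase lets protons flow back through a rotating ring to make ATP. Heart muscle is among the tissues richest in these complexes, since its contraction depends on oxidative phosphorylation. Complex III and ATP synthase also contain subunits encoded by mitochondrial DNA, which were not analysed here.

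Adult mice underwent surgical myocardial infarction (MI) and received intraperitoneal recombinant human CCN3 at 6 µg/kg or its vehicle PBS. At 4 days post injury (dpi) mRNA from the left ventricle was sequenced in bulk, giving 3 CCN3 and 3 PBS libraries. The protein CCN3 is a secreted matricellular protein, and the comparison asks how its administration alters ventricular transcripts after infarction. Per the methods, CCN3 was given to C57/B6J mice at 8 weeks of age in the longer dosing protocol. For the sequenced ventricles the methods say only that the mice were adult. The labels give 4 days of daily injection, whereas the study text starts dosing at 1 dpi and describes 3 consecutive days. All 6 libraries came from infarcted hearts, with no uninjured or untreated group. The replicates are described as biological, but separate animals are not named, so p-values describe these libraries and not a known number of animals.

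Values were log2 CPM (read counts scaled to a common library size, on a log2 scale) from which 2 factors of unwanted variation had been taken out, and read depth is unknown from them. Genes were compared with limma over all 15909 genes, and a gene was called changed at an adjusted p under 0.2, the threshold of the study. SDs cover only the spread left after factor removal. SEs and p-values by limma combine that remaining spread with a trend fitted over all genes. They do not measure the spread between the libraries of a gene alone. Among all genes 172 were lower in CCN3 (1.08% of those tested) and 82 were higher (0.515%), and at this threshold about 50.8 of the 254 calls are expected to be false. The median difference over all genes was -0.0018 on the log2 scale. Cardiomyocyte markers were abundant in every library with 15 of 15 measured.

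The 39 genes were shifted towards lower values in CCN3 treated ventricles, by small amounts. In total 38 had a negative difference and 1, Bcs1l, a positive one, with a median of -0.21 on the log2 scale. The largest difference was -0.38. In 32 of the 39 genes every CCN3 library lay below every PBS library, which was so for 18.2% of all genes. In 0 did every CCN3 library lie above every PBS library, which was so for 2407 of all 15909 genes. Called lower were 5 genes, Sdhc of complex II and Atp5c1, Atp5j, Atp5j2 and Atp5k of ATP synthase, where 1.08% of all genes were called lower. In the other direction 0 were called, where 0.515% of all genes were (23 of the 39 had an unadjusted p under 0.05, each with a negative difference, as had 10.6% of all genes in either direction). In bulk tissue, fewer cells of a type and less RNA per cell cannot be told apart.

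**Figure D1:**
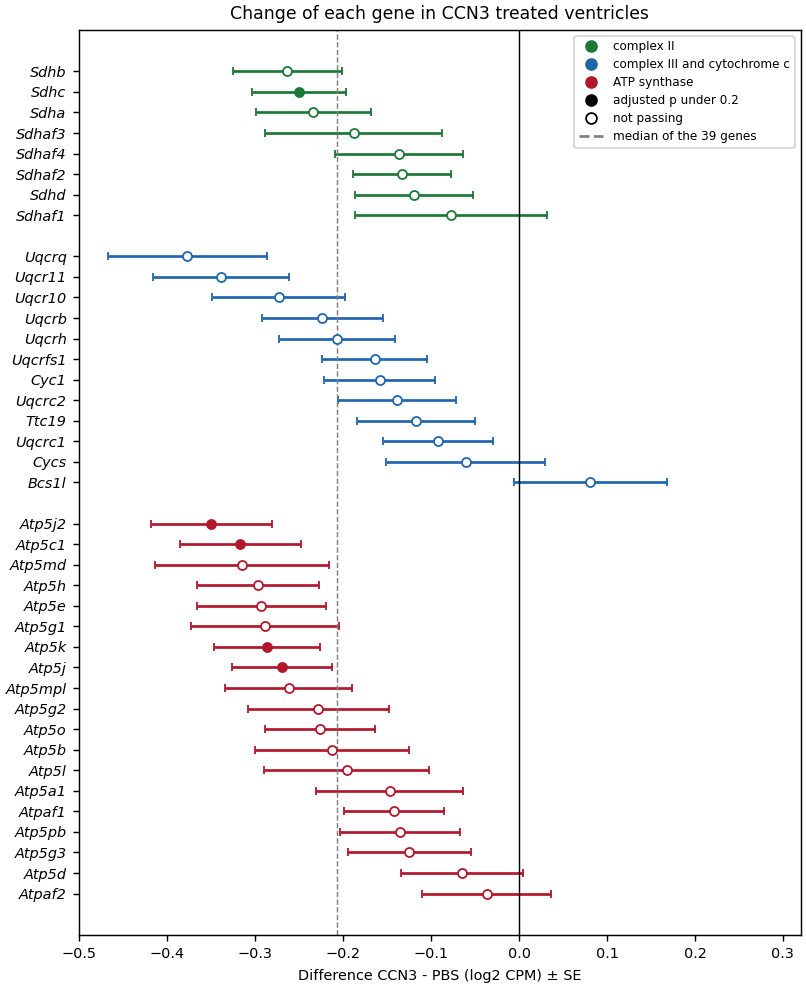
Difference between CCN3 and PBS for each of the 39 genes (x axis, log2 CPM, mean of 3 CCN3 minus mean of 3 PBS libraries; bars, SE from limma), grouped by complex. Filled points mark the 5 genes with an adjusted p under 0.2, and all points but Bcs1l lie left of 0, around a median of -0.21 (dashed line).

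The calls rested on which libraries were in the fit and on its settings. All 5 were lost without PBS replicate 3, without CCN3 replicate 2 or without CCN3 replicate 3, each leaving 0 calls (20 of the 39 genes at an unadjusted p under 0.05 in each case, and 9.73%, 10.9% and 11.2% of all genes). Without PBS replicate 1 there were 26, without CCN3 replicate 1 there were 20 and without PBS replicate 2 there were 7. Calls over all genes rose in the same fits, to 7.97%, 5.19% and 1.92% lower. In each of the 6 fits 38 of 39 differences stayed negative and the sign of Bcs1l stayed positive. For the 32 genes whose groups did not overlap, leaving out a library cannot change the sign. With library medians centred, or without a mean-variance trend, 0 genes were called (20 and 18 of the 39 at an unadjusted p under 0.05).

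**Figure D2:**
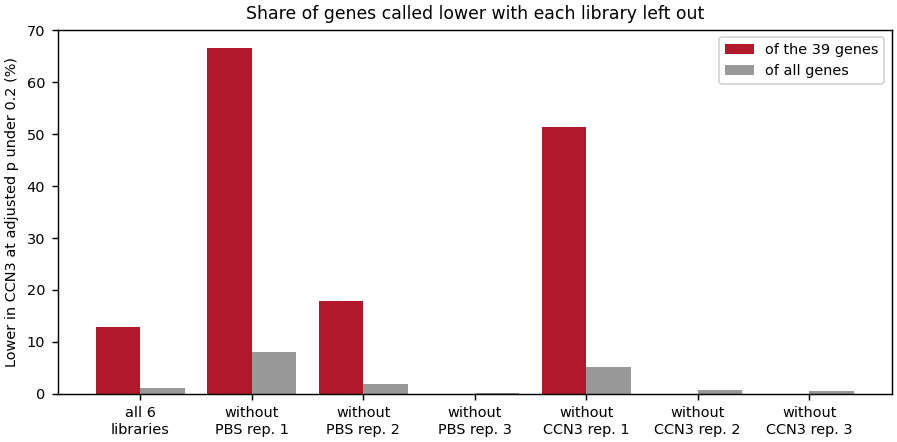
Share of genes called lower in CCN3 (y axis, %, adjusted p under 0.2) with all 6 libraries and with each library left out, for the 39 genes (red bars) and for all genes (grey bars). The share of the 39 genes was 12.8% with all libraries and ranged from 0% to 66.7%, the latter without PBS replicate 1.

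In their proximal promoters, the windows in which factors of nuclear respiratory gene control bind, these genes can be set side by side as sequence. RefSeq start sites on GRCm38.p6 were available for 32 of the 39 genes, and the 250 bases upstream of each were searched on both strands. A gene with several start sites counted if the bases upstream of any of them matched. The core of the nuclear respiratory factor 1 site, GCATGCGC, was present in 6 of 32 (18.8%) against 4.4% of 12307 genes. The ETS/GABP letters CCGGAAG were present in 10 (31.2%) against 13.9% of genes. The half-site of the estrogen-related receptors, AAGGTCA, was present in 2 (6.2% against 3.6%) and the YY1 letters AAGATGGCG in 1 (3.1% against 1.2%). The stretches around the NRF1 core follow because they show the shared letters, in capitals, on the strand of each gene. Where the core occurs in both orientations, the matches overlap in a single run of capitals:
Atp5k, chr5:108434428-108434461, minus strand: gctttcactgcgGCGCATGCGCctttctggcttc
Atp5g2, chr15:102671068-102671101, minus strand: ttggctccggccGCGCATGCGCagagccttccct
Cycs, chr6:50566610-50566641, minus strand: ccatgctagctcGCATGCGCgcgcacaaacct
Sdhb, chr4:140961205-140961236, plus strand: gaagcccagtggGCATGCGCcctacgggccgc
Ttc19, chr11:62281430-62281461, plus strand: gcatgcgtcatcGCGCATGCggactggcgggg
Atp5l, chr9:44920963-44920992, minus strand: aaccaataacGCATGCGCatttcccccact
Only Atp5k among these 6 was called lower, and the differences of the 6 spanned Cycs at -0.06 to Atp5k at -0.29. Of the other called genes, Atp5c1 and Atp5j2 hold none of the motifs searched, and no start site was available for Sdhc. The called gene Atp5j holds both the YY1 and the ETS/GABP letters upstream of a start site. The bases upstream of its other start site, chr16:84835626-84835875, hold none of the motifs searched. The letters stand in capitals in the 250 bases upstream of the former (minus strand, GRCm38.p6):
Atp5j, chr16:84834977-84835226: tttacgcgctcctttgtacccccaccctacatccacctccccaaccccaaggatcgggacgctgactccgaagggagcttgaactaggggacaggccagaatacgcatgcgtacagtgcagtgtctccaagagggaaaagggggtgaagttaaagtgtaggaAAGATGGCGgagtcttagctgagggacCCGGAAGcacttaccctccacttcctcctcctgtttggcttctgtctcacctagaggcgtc
A match of letters is a description and not a bound site.

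Among the 8 genes of complex II 1 was called lower, Sdhc, where 1.08% of all genes were. All 8 had a negative difference, with a median of -0.16. Sdhc, with Sdhd one of the pair of membrane anchors that hold the heme and the ubiquinone site, lay at 8.07, 8.07 and 8.08 log2 CPM in the PBS libraries and at 7.83, 7.82 and 7.82 in the CCN3 libraries. The groups did not overlap and each was tightly spaced, at 8.08 ± 0.005 (SD, n = 3) and 7.83 ± 0.008 (SD, n = 3). The difference was -0.25 ± 0.05 (SE) on the log2 scale, 0.841 times the PBS level, with an adjusted p of 0.198 by limma that ranged from 0.0692 to 0.269 with each library left out. On GRCm39 the gene is on chromosome 1 (chr1:170954732-170978223), with 6 exons.

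The other anchor, Sdhd, lay at 8.07, 8.17 and 8.19 log2 CPM in PBS and at 8.08, 8.03 and 7.96 in CCN3, so the groups overlapped (difference -0.12 ± 0.07, limma adjusted p 0.601). Sdha, the flavoprotein that oxidises succinate and the highest of the complex II transcripts in CPM, lay at 9.67, 9.65 and 9.64 in PBS and at 9.41, 9.42 and 9.44 in CCN3. Sdhb, the iron-sulfur subunit, had the largest difference of complex II, from 8.59, 8.68 and 8.68 in PBS to 8.40, 8.40 and 8.35 in CCN3. Both catalytic subunits had non-overlapping groups without passing the test, at -0.23 ± 0.06 (limma adjusted p 0.278) for Sdha and -0.26 ± 0.06 (0.220) for Sdhb.

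The 4 assembly factors of complex II, which insert the flavin cofactor or help the iron-sulfur subunit mature, had differences from -0.19 to -0.08, and 0 passed (0 with an unadjusted p under 0.05). The smallest was that of Sdhaf1, at 3.52, 3.77 and 3.68 log2 CPM in PBS and 3.50, 3.66 and 3.57 in CCN3, with overlapping groups and a difference of -0.08 ± 0.11. Groups did not overlap for the other 3, which were Sdhaf2 (-0.13 ± 0.06), Sdhaf3 (-0.19 ± 0.10) and Sdhaf4 (-0.14 ± 0.07). In 18.2% of all genes every CCN3 library lay below every PBS library.

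Among the 12 genes of complex III and cytochrome c 0 were called (7 had an unadjusted p under 0.05 by limma), although 11 had a negative difference and in 9 the groups did not overlap. The median was -0.16. Over all genes 1.08% were called lower, and in 18.2% every CCN3 library lay below every PBS library. The small subunits that surround the catalytic core, Uqcrb, Uqcrq, Uqcrh, Uqcr10 and Uqcr11, had the more negative values, with a median of -0.27 and 5 of 5 without overlap.

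Uqcrq, a small membrane subunit, had the largest difference of all 39 genes. It lay at 7.17, 7.35 and 7.40 log2 CPM in PBS and at 7.03, 6.94 and 6.82 in CCN3, all lower, with a difference of -0.38 ± 0.09 (0.770 times the PBS level, limma adjusted p 0.227). Uqcr11 followed at 6.76, 6.96 and 6.95 in PBS and 6.58, 6.59 and 6.49 in CCN3, a difference of -0.34 ± 0.08 (0.210). The other small subunits differed by -0.27 ± 0.08 (Uqcr10), -0.22 ± 0.07 (Uqcrb) and -0.21 ± 0.07 (Uqcrh, the acidic hinge protein next to cytochrome c1). Of the 39 genes 5 had an adjusted p between 0.2 and 0.25, namely Uqcr11, Uqcrq, Sdhb, Atp5h and Atp5e.

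Cyc1, which carries the heme of cytochrome c1, lay at 7.83, 7.79 and 7.85 log2 CPM in PBS and at 7.74, 7.63 and 7.62 in CCN3, with no overlap and a difference of -0.16 ± 0.06 (limma adjusted p 0.446). Uqcrfs1, the Rieske iron-sulfur protein, differed by the same amount, -0.16 ± 0.06 (0.398). Cycs, the mobile cytochrome c and the highest transcript of this group in CPM, lay at 10.18, 10.10 and 10.20 in PBS and 10.23, 10.04 and 10.04 in CCN3. Cycs was thus highest in CCN3 replicate 1, the groups overlapped, and its difference of -0.06 ± 0.09 lay within the spread (0.868). The core proteins Uqcrc1 and Uqcrc2 had differences of -0.09 and -0.14.

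Bcs1l, the inner membrane translocase that places the Rieske protein in the complex, was the 1 gene with a positive difference. It lay at 4.08, 3.94 and 4.00 log2 CPM in PBS and at 4.15, 4.03 and 4.08 in CCN3, so the groups overlapped (0.08 ± 0.09, limma adjusted p 0.807). Ttc19, which binds complex III and helps clear Rieske fragments, lay at 5.41, 5.47 and 5.41 in PBS and 5.23, 5.35 and 5.35 in CCN3, without overlap (-0.12 ± 0.07, 0.613).

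Among the 19 genes of ATP synthase 4 were called lower, all 19 had a negative difference with a median of -0.23, and in 17 the groups did not overlap. The shares over all genes were 1.08% called lower and 18.2% with every CCN3 library below every PBS library. By position in the enzyme, medians were -0.21 for the 5 subunits of the catalytic F1 head and central stalk, -0.23 for the 3 genes of the membrane ring, -0.25 for the 4 of the peripheral stalk and -0.29 for the 5 small membrane subunits. These values were set side by side and not tested against each other.

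Atp5j2 (the f subunit, Atp5mf in GENCODE) had the lowest adjusted p of the 39 genes. It lay at 8.46, 8.53 and 8.57 log2 CPM in PBS and at 8.25, 8.16 and 8.10 in CCN3, with no overlap, a difference of -0.35 ± 0.07 and 0.785 times the PBS level (limma adjusted p 0.180, 0.0703 to 0.260 with each library left out). Atp5k (the e subunit, Atp5me), which with the g subunit helps hold ATP synthase dimers together, lay at 7.78, 7.83 and 7.85 in PBS and 7.58, 7.53 and 7.49 in CCN3. Its difference was -0.29 ± 0.06 (0.192). Both genes are on chromosome 5 of GRCm39, Atp5j2 at chr5:145120505-145128872 and Atp5k at chr5:108581110-108582949, with 4 exons each.

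Atp5c1 (the gamma subunit, the shaft that turns inside the head, Atp5f1c) lay at 9.71, 9.80 and 9.79 log2 CPM in PBS and at 9.45, 9.47 and 9.43 in CCN3. The difference was -0.32 ± 0.07, 0.803 times the PBS level (limma adjusted p 0.198). Atp5j (coupling factor 6 of the peripheral stalk, Atp5pf) lay at 8.66, 8.65 and 8.67 in PBS and 8.41, 8.38 and 8.38 in CCN3. All CCN3 libraries were lower and close together for Atp5j, with a difference of -0.27 ± 0.06 (0.195). On GRCm39 Atp5c1 is at chr2:10060827-10085350 with 9 exons and Atp5j at chr16:84614160-84633154 with 4 exons.

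**Figure D3:**
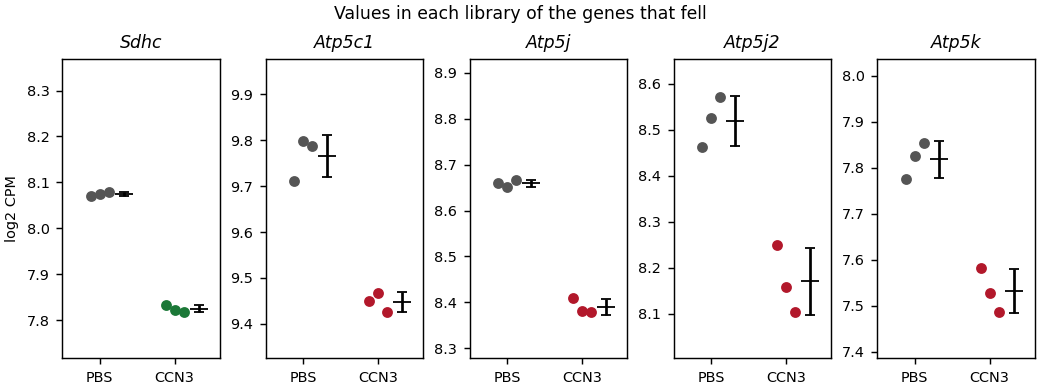
Values of the 5 genes called lower (y axis, log2 CPM, each panel spanning the same range) in the 3 PBS and 3 CCN3 libraries, shown as points in replicate order, with mean and SD as bars to the right. In each panel all CCN3 points lie below all PBS points, for Atp5j at 8.38 to 8.41 against 8.65 to 8.67.

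Atp5b, the catalytic beta subunit and the highest ATP synthase transcript in CPM, lay at 11.23, 11.25 and 11.25 log2 CPM in PBS and at 11.03, 11.03 and 11.02 in CCN3. The groups did not overlap, but the difference of -0.21 ± 0.09 did not pass (limma adjusted p 0.459). Its partner Atp5a1, the alpha subunit, differed by -0.15 ± 0.08 (0.608). The remaining head and stalk genes were Atp5e at -0.29 ± 0.07 and Atp5d at -0.06 ± 0.07, the latter with overlapping groups.

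Of the peripheral stalk, which keeps the head from turning with the ring, Atp5h (the d subunit) differed by -0.30 ± 0.07, Atp5o (OSCP, the link to the head) by -0.23 ± 0.06 and Atp5pb (the b subunit) by -0.14 ± 0.07, none of them passing (limma adjusted p 0.219, 0.278 and 0.554). The other small membrane subunits were Atp5md (-0.31 ± 0.10), Atp5mpl (-0.26 ± 0.07) and Atp5l (the g subunit, -0.20 ± 0.09), and in Atp5l the groups overlapped. These 6 genes were thus all negative without a call.

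The genes Atp5g1, Atp5g2 and Atp5g3 encode the same mature c subunit of the rotating ring. Atp5g1 lay at 7.75, 7.83 and 7.91 log2 CPM in PBS and 7.67, 7.52 and 7.44 in CCN3 (-0.29 ± 0.08, limma adjusted p 0.303). Atp5g2 lay at 6.82, 7.00 and 7.02 in PBS and 6.78, 6.74 and 6.63 in CCN3 (-0.23 ± 0.08, 0.383). For Atp5g3 the values were 9.16, 9.21 and 9.25 in PBS and 9.15, 9.07 and 9.03 in CCN3 (-0.12 ± 0.07, 0.603). For all 3 every CCN3 library lay below every PBS library, although by narrow margins, as was so for 18.2% of all genes. Of the 3, 0 passed (2 had an unadjusted p under 0.05).

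The assembly factors Atpaf1 and Atpaf2, chaperones of the beta and alpha subunits, had non-overlapping groups and did not pass the test. Atpaf1 lay at 5.91, 5.85 and 5.87 log2 CPM in PBS and 5.74, 5.71 and 5.74 in CCN3 (-0.14 ± 0.06, limma adjusted p 0.447), and Atpaf2 at 4.26, 4.23 and 4.25 against 4.22, 4.20 and 4.21 (-0.04 ± 0.07, 0.911). The inhibitor of ATP hydrolysis, Atpif1, which the symbols above do not take in, lay at 6.79, 6.80 and 6.83 in PBS and 6.79, 6.73 and 6.71 in CCN3. Its groups overlapped and the difference was -0.06 ± 0.06 (0.760). Over the 3 complexes, the 8 assembly factors had a median of -0.13 with 0 called (1 with an unadjusted p under 0.05), beside -0.23 with 5 called for the 31 subunits and cytochrome c.

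Summed over genes, transcripts of the 39 genes made up 1.58% to 1.67% of CPM in the PBS libraries and 1.39% to 1.48% in the CCN3 libraries. Mean sums in CCN3 were 0.859 times those in PBS for complex II, 0.902 for complex III with cytochrome c and 0.862 for ATP synthase, and the groups did not overlap for any of them. Complex I (0.869) and complex IV (0.813), summed in the same way, also did not overlap. Cardiomyocyte markers summed to 52001 to 61510 CPM in PBS and to 48246 to 52482 CPM in CCN3, so the groups overlapped, at a ratio of 0.907. The sums of citrate cycle genes (0.912), of mitochondrial mass and cristae genes (0.920) and of the mitochondrial ribosome (0.944) did not overlap either, nor did those of the lymphocyte (0.899) and the smooth muscle and pericyte markers (0.811).

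**Figure D4:**
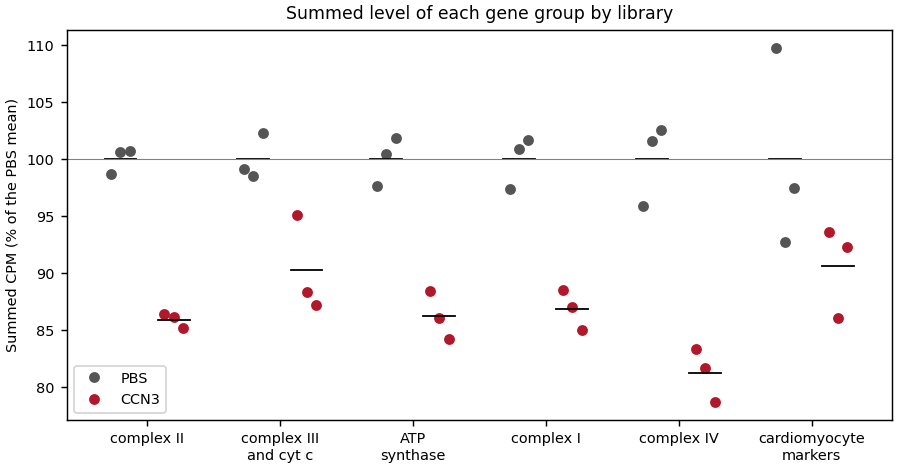
Summed CPM of each gene group in each library, as a percentage of the PBS mean (y axis), with PBS in grey, CCN3 in red and the group mean as a bar. The sums of complexes II, III and ATP synthase in CCN3 lie below every PBS library, as do those of complexes I and IV, and the cardiomyocyte markers overlap.

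Markers of the cell types in the ventricle were read beside these values. Of the 15 cardiomyocyte markers 7 had a negative and 8 a positive difference, with a median of 0.01 and a wide range, from -0.47 to 0.67. An unadjusted p under 0.05 by limma was reached by 7 of the 15, in both directions, as by 10.6% of all genes. Called lower was 1, the troponin Tnni3 (-0.44 ± 0.08, limma adjusted p 0.177). Medians were 0.13 for 8 fibroblast markers, -0.09 for 8 endothelial, -0.03 for 10 macrophage, -0.06 for 7 neutrophil and -0.31 for 8 lymphocyte markers, with 0 called in each (1, 2, 1, 0 and 2 with an unadjusted p under 0.05). Of 8 smooth muscle and pericyte markers 4 were negative and 4 positive, with a median of -0.10 and values up to 0.34. Among them Kcnj8 (-0.54) and Abcc9 (-0.51) were called lower, and the sum over the 8 ranged from 1844 to 2193 CPM in PBS and from 1538 to 1674 CPM in CCN3. Skeletal muscle markers, 6 of 9 measured, had a median of 0.89 with Acta1 called higher (1.12 ± 0.23, limma adjusted p 0.192), and 5 of 6 fat markers had a median of 0.28 with 0 called (0 with an unadjusted p under 0.05). The part of cell make-up in the lower respiratory transcripts was not tested.

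Other mitochondrial genes were read from lists chosen by function, beside 1.08% of all genes called lower. Complex I, with 37 genes, had 37 negative differences, a median of -0.21 and 4 called lower, among them Ndufb11 (-0.39), Ndufb2 (-0.33) and Ndufa5 (-0.32). Complex IV, with 15 genes, had 14 negative, a median of -0.33 and 5 called lower, among them the muscle isoforms Cox7a1 (-0.69), Cox8b (-0.57) and Cox6a2 (-0.48). The 13 citrate cycle genes had a median of -0.14 with Idh3b (-0.29) called lower. The 41 genes of the mitochondrial ribosome had a median of -0.08 and 0 called (4 with an unadjusted p under 0.05), and 22 genes of mitochondrial mass and cristae had the same median with 0 called (3). Further assembly factors of these complexes were measured for 7 of 10, with 7 negative and 0 called (1). Fmc1, an ATP synthase assembly factor described in yeast, was nearest at -0.41 ± 0.09 (limma adjusted p 0.201).

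The libraries of a group differed in the same order across many of these genes. PBS replicate 1 was the lowest PBS library in 27 of the 39 (69.2%, against 38.6% of all genes), and CCN3 replicate 1 was the highest CCN3 library in 33 (84.6%, against 41.0%). PBS replicate 3 was the highest PBS library in 25 (64.1%, against 20.7%), and CCN3 replicate 3 the lowest CCN3 library in 30 (76.9%, against 27.4%). These orders are not separate observations, since factor removal left 2 directions empty and so links the deviations of the PBS and CCN3 libraries. Over all genes the deviations of PBS replicate 3 and CCN3 replicate 3 correlated at -0.98. PBS replicate 1 also had the highest cardiomyocyte marker sum, 61510 CPM. In the fits that left each library out, given above, calls over all genes changed as well. The part of this library order in the calls was not tested.

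Coding length was read from GENCODE for 36 of the 39 genes. The shorter genes had somewhat more negative differences, with a Spearman rho of 0.39 between difference and coding length across 36 genes that share libraries and are not independent, and 0.17 across 13882 genes. For 19 genes under 500 bases the median was -0.23 and 3 were called lower, and for 17 longer genes it was -0.15 with 2 called. Among the other genes of the table the median was -0.05 for 1067 under 500 bases, of which 24 were called lower. For 12779 longer ones it was 0.0024, with 113 called lower. The part of length in these differences was not tested.

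**Figure D5:**
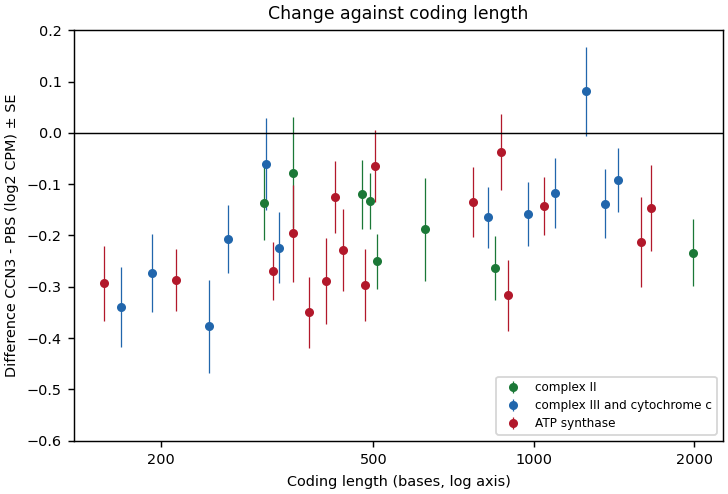
Difference between CCN3 and PBS (y axis, log2 CPM; bars, SE) against coding length (x axis, bases, log axis) for the 36 genes with a GENCODE coding sequence, coloured by complex. The most negative points lie among genes under 500 bases, where the median was -0.23, against -0.15 for longer genes.

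Several of these genes share stretches of sequence with transcripts of other genes in GENCODE, so reads can be shared between them. The authors assigned reads to NCBI transcripts, where the sharing was not examined. More than 50% of 31-base stretches of the transcript were also found in transcripts of other genes for 4 of the 36 that could be assessed. These were Atp5g2 (88.3%), Atp5g1 (78.5%), Atp5l (63.3%) and Uqcrb (51.9%). Their values can be less certain, by an amount that was not measured. Of the genes called lower the share was 33.7% for Atp5k, 11.8% for Atp5c1, 8.22% for Atp5j2, 4.63% for Atp5j and 2.52% for Sdhc.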

How the data were processed

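The 6 left ventricle libraries (3 CCN3, 3 PBS) were grouped by the labels. The authors assigned stranded, single-end reads to GRCm39 transcripts with Salmon 1.4.0, removed 2 factors of unwanted variation and deposited log2 CPM for 15909 genes. Depth is unknown, as raw counts were not analysed here. For the low-count filter and the prior count, values are not given in the sources used here. The authors' separate table of edgeR fold changes, p-values, false discovery rates and annotation terms was not used.

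The 2 directions left empty by factor removal were recovered by singular value decomposition (tolerance 1e-06) and entered with treatment in limma 3.58.1 (R 4.3.3, trended empirical Bayes, two-sided, Benjamini-Hochberg over all genes), with 2 residual and 4.47 prior degrees of freedom. Uncertainty from any overlap of treatment with the removed factors is not in the SEs. The members and the lists were chosen with earlier results of these data known. Values in every library are given for called members, the most abundant and the extreme members of each complex, Sdha to Sdhd, Cyc1, Cycs, the c-subunit genes, the inhibitor, Bcs1l, Ttc19, Atpaf1 and Atpaf2. Uqcr11 was added after its values were seen. Of non-members, called genes of the lists are named, at most 3 a list, and Fmc1 was chosen after its values were seen. Positions and coding lengths came from GENCODE on GRCm39 (36 of 39 genes matched, 13 under another symbol). Promoters came from RefSeq on GRCm38.p6. Alternatives varied the trend, centring, low-value filter, pseudocount, empty directions, pairing and libraries.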

Additional observations from a re-analysis of the deposited data

How the results depend on the processing

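The direction of each of the 39 genes was the same as reported under all 12 alternatives, with medians from -0.23 to -0.18, but the counts of calls were not stable. Without a trend, with a minimum mean, with treatment only or with the replicate block, the differences themselves are unchanged by construction. Their direction could not differ there. Against 5 genes called lower (1 of complex II, 0 of complex III with cytochrome c, 4 of ATP synthase) and 10 in the functional lists, the fit without a mean-variance trend gave 0, 0, 0 and 0, and 0 in the lists (18 of the 39 at an unadjusted p under 0.05). With library medians centred 0 were called, 0 in complex II and 0 in ATP synthase (20 at an unadjusted p under 0.05). A minimum mean of 1 log2 CPM gave 16 in the lists. On the log2(CPM + 1) scale Atp5c1 was lost, leaving 4. With treatment only, which counts as residual the directions that factor removal left empty, 34 were called, 7 in complex II, 10 in complex III, 17 in ATP synthase and 83 in the lists. With each library left out the counts ranged from 0 to 26 for the 39 genes, from 0 to 6 for complex II, from 0 to 7 for complex III, from 0 to 14 for ATP synthase and from 4 to 64 for the lists. Whether replicate numbers pair the samples is not known. Same-numbered libraries deviated with correlations of 0.13, 0.97 and -0.98. Factor removal left 2 directions empty, so these correlations cannot show whether the samples were paired. The replicate block called 32 lower and 1 higher (Bcs1l, with 2686 of all genes called higher). Of those lower, 6 were in complex II, 10 in complex III and 16 in ATP synthase, and 86 were called lower in the lists. The block fit did not enter the directions that factor removal left empty either, so its SEs can be too small. Over all genes 172 were called lower as reported, 1 without trend, 104 centred, 2633 with treatment only, 3246 with the replicate block, and 28 to 1268 with a library left out.

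With 3 libraries a group and unknown depth, differences of the size seen here sit near the threshold, and no counting error can be given. Variation along the removed factors is not in the values, so errors are those left after removal.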
